A study of Rattus norvegicus with 6 samples.

Results

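The data described here are 1 of the 6 samples of a rat study, the array that set striatal RNA of tickled rats against striatal RNA of rats given no stimulus. It is a two-colour Agilent array of 44290 features, with tickled RNA in Cy5 and no-stimulus RNA in Cy3. The array was chosen by its title. A gene's value is the median log2 ratio, tickled over no stimulus, of its probes that carry exactly 1 symbol, and 10922 of the 14871 symbols on the array had such a value. A positive ratio means more signal from tickled than from no-stimulus striatum, and a fold is 2 raised to the size of the ratio.

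Tickled rats, male Wistar animals of an outbred laboratory strain, were stimulated by hand on every weekday for 4 weeks from weaning at 21 days of age, with 15 s of tickling after each 15 s pause. Tickling stands in for play between rats and makes them call at 50 kHz, above human hearing. No-stimulus rats were male Wistar animals of the same age that were given neither tickling nor light touch. All animals, also those of a light-touch condition, lived singly in screened cages and were 60 days old when sampled. The labels give 4 animals a condition and 1 replicate an array, with 500 ng of input RNA, and do not say whether the RNA used here came from 1 animal or from a pool.

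With 1 array, no replicate and no dye swap there is no error over animals. No p-value, standard deviation over samples or test is therefore given, and genes are counted by the size of their ratio. What spread can be measured is that between different probes of a gene, whose standard deviation had a median of 0.12 and a 90th percentile of 0.29. The direction rests on the dyes in the labels. The log base is not stated with the values: they are read in base 2, and as natural logs each would be 1.44 times as large. Values over light touch, from the other striatal array, stand beside those over no stimulus as context. That array also carries tickled striatal RNA, possibly the same extract, so the pair of values is not independent evidence.

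The striatum is the input nucleus of the basal ganglia and takes part in reward, habit and movement. Most of its neurons are medium spiny neurons, which release GABA and carry the D1 or the D2 dopamine receptor. They receive glutamate from axons of cortex and thalamus and dopamine from axons of the midbrain. The cell bodies of these axons, which hold most of their mRNA, lie outside the striatum, in regions that border it or are far from it.

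The extraction text in the labels names hypothalamus, whereas the tissue label is striatum. A value is blank for many features, and the count of marker genes with a value is the sign of tissue that the files allow. All 36 annotated medium spiny neuron markers had a value on the array, the D1 receptor gene Drd1 and the D2 receptor gene Drd2 among them. The same list had 22 and 26 valued members on the salivary gland arrays (no stimulus first, light touch next), and 11 and 10 on the leukocyte arrays. Of the 23 annotated hypothalamus markers, 15 had a value in striatum, against 8 and 10 on the salivary gland arrays and 8 and 5 on those of leukocytes. Markers of both regions thus had values, and the counts do not place the sample in 1 of them alone.

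Most genes lay close to 0. The gene values had a median of -0.02 and a standard deviation over genes of 0.20, and the central 95% of them lay between -0.41 and 0.38. The lowest was -1.57 and the highest 1.66. Values above 0 were found for 4921 genes, which is 45.1% of those valued, and values below 0 for 6001, which is 54.9%. At 2-fold, 5 genes (0.0458%) were higher and 10 (0.0916%) lower in tickled striatum, 15 in all (0.137%). At 1.5-fold, a log2 ratio of 0.58, 53 genes (0.485%) were higher and 86 (0.787%) lower, 139 in all (1.27%). The light-touch array gave 9 and 9 genes at 2-fold (0.0831% each) and 88 higher (0.812%) and 59 lower (0.545%) at 1.5-fold.

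**Figure D1:**
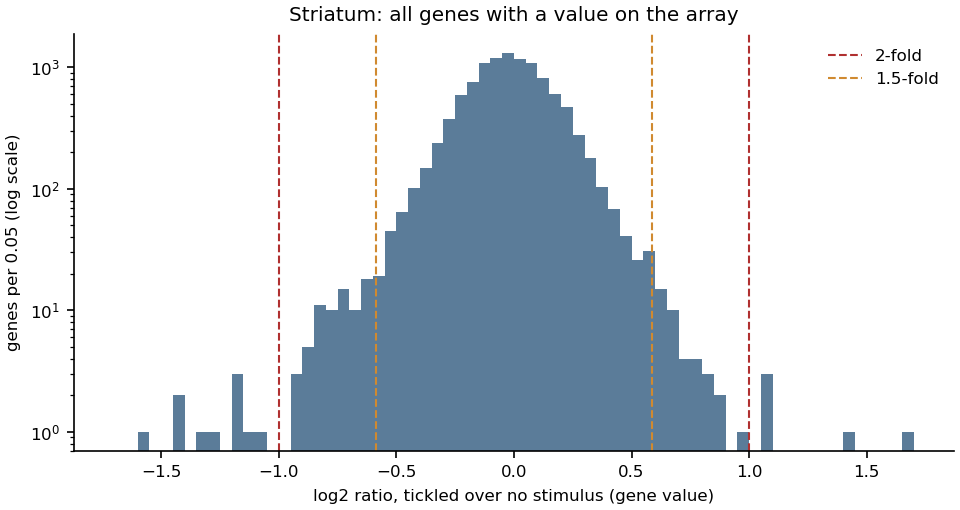
Histogram of the 10922 gene values of the striatal array. The horizontal axis is the log2 ratio, tickled over no stimulus, and the vertical axis is the number of genes per bin of 0.05 on a log scale. Dashed lines mark 2-fold and 1.5-fold; 5 genes lie past the right 2-fold line and 10 past the left one.

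The tails were made mostly of genes read by 1 probe. Of the 7016 genes with 1 probe, 128 (1.82%) were 1.5-fold or more apart, against 11 of 3906 genes with 2 or more probes (0.282%). Values had a standard deviation of 0.22 over genes with 1 probe and 0.16 over genes with more. All probes shared a sign in 1945 of the 3906 genes, and the 11 were all among these (0.566%). Genes valued on no other tissue's arrays spread more widely: 40 of the 962 genes valued on the 2 striatal arrays only (4.16%) passed 1.5-fold, against 18 of the 5490 genes valued on all 6 arrays (0.328%), with standard deviations of 0.26 and 0.16. Intensities were not used here, so it was not tested whether these genes gave weaker signal.

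The 20 genes highest in tickled striatum came from several systems. They were taken after leaving out locus numbers, olfactory receptor names and genes with probes of both signs. Tjp1 led them with a log2 ratio of 1.66, a 3.17-fold higher signal. It encodes ZO-1, the scaffold protein that ties tight junctions to the actin skeleton. Hpgd followed at 1.40, or 2.64-fold, and encodes the dehydrogenase that inactivates prostaglandins. Oxt, which encodes oxytocin, had 1.08 (2.12-fold), the stomach hormone gene Ghrl (ghrelin) 1.06 (2.08-fold) and the lens galectin-related gene Grifin 1.05 (2.08-fold). These were the 5 genes past 2-fold.

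Below them came Psg16, a pregnancy-specific glycoprotein gene, at 0.98 and Iftap, which encodes a protein associated with intraflagellar transport, at 0.86. The Wnt receptor gene Fzd6 had 0.85, Poglut3, an O-glucosyltransferase of the endoplasmic reticulum, 0.84, and Ret, the signalling receptor of the GDNF family, 0.83. Next were Apobec1, the cytidine deaminase that edits apolipoprotein B mRNA, at 0.80, Clrn1, a hair cell protein gene, at 0.79 and Avp, which encodes vasopressin, at 0.78. The aldo-keto reductase genes Akr1c13 and Akr1c19 had 0.77 and 0.74. Their family is close in sequence, so a probe may read more than 1 of its members. The list ended with the membrane transporter gene Slc49a3 at 0.76, Mlf1 at 0.72, Marcks, an actin-binding substrate of protein kinase C, at 0.71, Tmem81 at 0.70 and the zinc finger gene Zfp202 at 0.69.

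Of these 20 genes, 17 rested on 1 probe. Over light touch, Tjp1 had -0.33 and Grifin -0.87, both below 0. Hpgd had 0.43 there, Ghrl 0.43, Psg16 0.55, Apobec1 0.69, Avp 0.73, Akr1c13 0.92, Akr1c19 0.76 and Mlf1 0.99. Oxt had 0.15, Poglut3 0.11, Marcks 0.18 and Zfp202 0.18, so these stood apart from no stimulus and lay near 0 against light touch. No test of the difference between the comparisons is possible with 1 array of each.

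The 20 genes lowest in tickled striatum, taken in the same way, included genes of excitatory neurons and of synapses. Prpf31, which encodes a factor of the spliceosome's tri-snRNP, was lowest at -1.57, a 2.97-fold lower signal. Cntfr, the receptor of ciliary neurotrophic factor, had -1.42 (2.68-fold) and Bdnf, a neurotrophin that reaches the striatum along axons from cortex, -1.31 (2.48-fold). Tbr1, a transcription factor of cortical excitatory neurons, had -1.26 (2.40-fold), and Slc17a7, which encodes the vesicular glutamate transporter VGLUT1 of such neurons, -1.20 (2.29-fold). Cbln2, a secreted organizer of synapses, and Cdon, a coreceptor for hedgehog proteins, each had -1.16. Rspo2, a secreted amplifier of Wnt signals, had -1.13 and the neuropeptide gene Cck -1.06. The 10 genes past 2-fold also include the olfactory receptor gene Or8b101b at -1.43, between Prpf31 and Cntfr. The rule for named genes leaves it out.

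Atoh7, a transcription factor gene known from retina, followed at -0.94, then Nxph3, a neurexophilin gene, at -0.92 and the natriuretic peptide gene Nppa at -0.90. Neurod6, a transcription factor of cortical excitatory neurons, had -0.89, the alpha-globin gene Hba-a3 -0.88 and Wdr82, a subunit of histone H3 lysine 4 methyltransferase complexes, -0.87. Kcnj6, which encodes a potassium channel opened by G proteins, and Tmem132d each had -0.86. The last were Irak2, a kinase of Toll-like receptor signalling, at -0.84, the ephrin ligand gene Efna5 at -0.84 and the cerebellin gene Cbln1 at -0.83. Of the 20, 18 rested on 1 probe.

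Over light touch, Prpf31 had -1.35, Slc17a7 -1.13, Atoh7 -1.13, Kcnj6 -1.08, Cck -1.01 and Bdnf -0.99. Tbr1 had -0.96, Cbln2 -0.95, Rspo2 -0.94 and Neurod6 -0.82. Cntfr had -0.43 and Nxph3 -0.45, and Wdr82 at -0.03, Tmem132d at -0.08 and Cdon at -0.16 were close to 0.

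**Figure D2:**
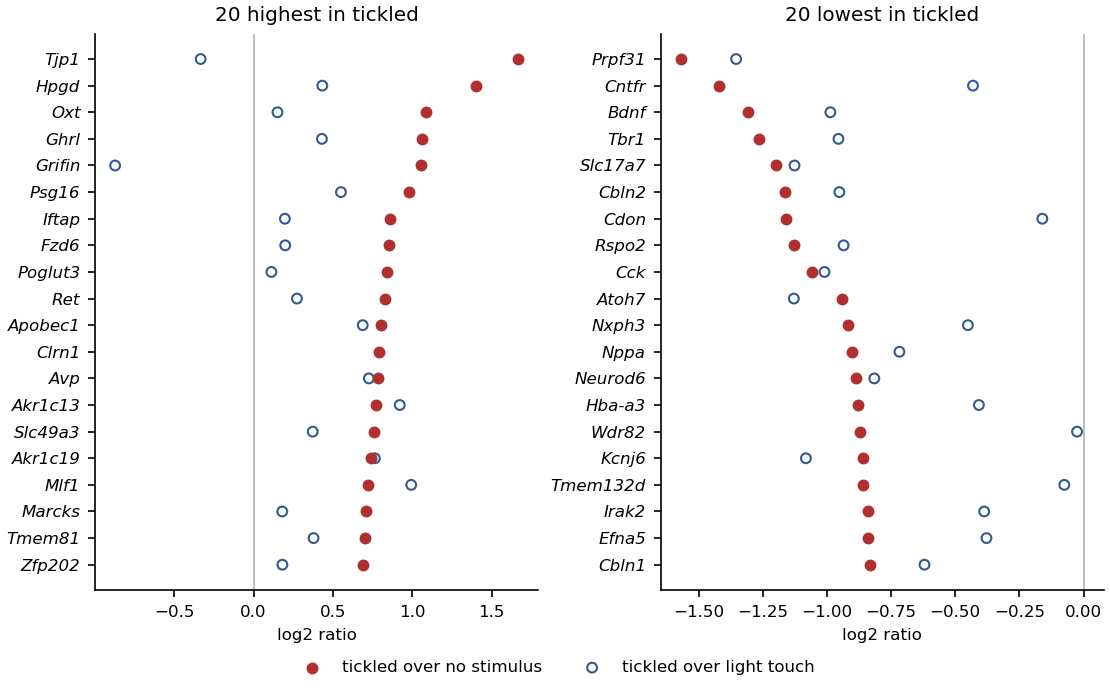
The 20 genes highest (left) and the 20 lowest (right) in tickled over no-stimulus striatum, under the rule for named genes. The horizontal axis is the log2 ratio; filled points are tickled over no stimulus and open points tickled over light touch, with no open point for Clrn1. In the left panel the open points of Tjp1 and Grifin lie left of 0, and in the right panel those of Wdr82 and Tmem132d lie nearest to 0.

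Some leading genes were set in the same direction in other tissues, which all carry tickled RNA in Cy5. The 1 probe of Prpf31 had -1.23 on each salivary gland array, so its low value was not particular to striatum. Other genes of the splicing machinery did not share it: of 24 valued, Prpf31 was the only one 1.5-fold apart, Prpf40b had -0.24, and the list had a median of -0.06 with 7 above 0 and 17 below. Akr1c13 had 0.58 and 0.33 in salivary glands, Tmem81 0.52 and 0.47, and Hpgd 0.51 and 0.37. Psg16 had 0.54 and 0.34 there, and Ret 0.53 and 0.20. Grifin went the other way, at -1.22 over no stimulus. In salivary glands, Oxt had 1.42 (0.10 with light touch as comparator) Slc49a3 had 1.09 and 0.21. Neurod6 lay below 0 on all 4 arrays of the other tissues, between -0.33 and -0.70. Slc17a7 lay elsewhere on these arrays, with salivary values of -0.06 and 0.79 and leukocyte values of 0.05 and 0.94, no stimulus first. Cbln1 had -2.93 in salivary glands over no stimulus, but 0.19 there over light touch. Whether such shared values come from a probe or its dye was not tested.

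Where several probes read a gene, their spread can be set beside its ratio. The 4 probes of Tjp1 had 1.27, 1.47, 1.86 and 2.01 over no stimulus, all far above 0, and -0.36, -0.21, -0.35 and -0.32 over light touch, all below 0. Its salivary gene values were -0.03 and -0.00. The 2 probes of Bdnf had -1.45 and -1.16, and those of Slc17a7 had -1.37 and -1.03. Avp had probes at 0.54 and 1.02. The 3 probes of Marcks had 0.22, 0.71 and 0.83, so 1 of them was well below 1.5-fold. Nptx1, a neuronal pentraxin gene, had -0.78 and -0.46.

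The other 1.5-fold genes with 2 or more agreeing probes were picked out after their values were seen. Epop, which encodes a partner of polycomb repressive complex 2, had a gene value of -0.78. C1ql3 and Lrfn2, both genes of synaptic adhesion, had -0.71 each, and Wipi2, a gene of autophagosome formation, had -0.70. Lactb, a gene of mitochondria, had 0.67 from probes at 0.20 and 1.13, which agree in sign and hardly in size. Agreement of probes was also absent elsewhere. Homer1, a synaptic scaffold gene with a median of -0.58, had probes at -1.01 and -0.16, and the split was alike over light touch, at -1.06 and -0.11. Sh3bgrl1, also picked after its values were seen, had 2 probes at 0.16 and 1 at 1.05, and the high probe also stood at 1.04 over light touch and at 1.01 and 0.96 in salivary glands.

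**Figure D3:**
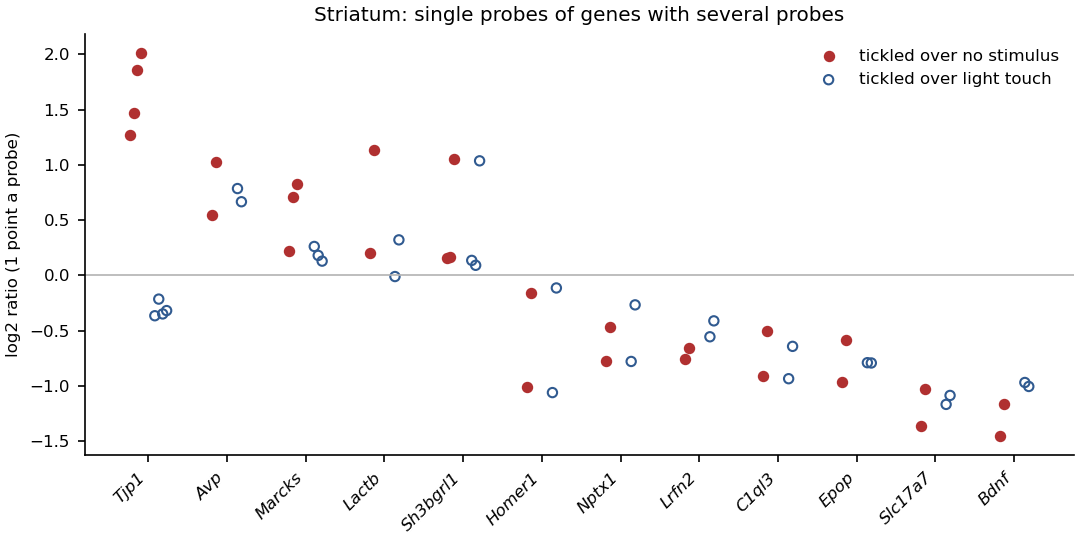
Single probes of 12 genes in striatum. The vertical axis is the log2 ratio, with 1 point a probe; filled points are tickled over no stimulus and open points tickled over light touch. The 4 filled points of Tjp1 lie between 1.27 and 2.01 and its open points below 0, while the probes of Homer1 and Sh3bgrl1 split alike in both comparisons.

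The neighbours of 4 leading genes on the chromosome, up to 5 on each side in RefSeq's order, lay much closer to 0 than these genes. The 8 valued neighbours of Tjp1 lay between -0.26 and 0.48, the 4 of Hpgd between 0.03 and 0.34, the 5 of Prpf31 between -0.33 and 0.06 and the 4 of Cntfr between -0.18 and 0.12. Oxt and Avp, which encode the related peptides of the posterior pituitary, are next to each other and were both among the 20 highest genes.

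Genes of excitatory cortical neurons held the lowest median of the cell type lists. Of 21 valued, 13 were below 0 and 8 above, the median was -0.26, and 5 were 1.5-fold lower, against 0.787% of all genes; none was 1.5-fold higher. These shares of all genes, 0.787% lower and 0.485% higher, are the background of the 1.5-fold counts of each list that follows. For counts by sign it is 45.1% above 0 and 54.9% below. Genes valued on the 2 striatal arrays only (4.16%) and genes with 1 probe (1.82%) passed 1.5-fold either way more often than all genes (1.27%). Tbr1 was of both kinds and Slc17a7 of neither. The lists were chosen with earlier results of these data known, so the shares test none of them. The 5 cortical genes 1.5-fold lower were Tbr1, Slc17a7, Neurod6, Nrn1 (neuritin, -0.78) and Nptx1 (-0.62). The cortical list had a median of -0.21 over light touch. Nrn1 was low in other tissues as well, with -0.38 in salivary glands over no stimulus and -0.22 and -0.57 in leukocytes. The members went apart: Rasgrf2, picked out after its value was seen as the highest, had 0.33. Genes of claustrum and deep cortical layers, regions that border the striatum, were below 0 in 12 of 14 with a median of -0.14 (-0.08 over light touch), and 1 was 1.5-fold lower, the nuclear receptor gene Nr4a2 at -0.82. Tle4, a corepressor of deep layers, had -0.48.

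The 36 valued medium spiny neuron genes had a median of -0.08, and of -0.02 in the light-touch comparison, with 12 above 0 and 24 below, and 0 were 1.5-fold apart in either direction. Once the other tissues' median was subtracted, the median was -0.27 over the 10 members left (-0.09 over the same genes before), against -0.35 over 8 members of the cortical list (-0.27 before). Ppp1r1b, which encodes the dopamine-regulated phosphatase inhibitor DARPP-32, was lowest at -0.42, followed by Tmem158 at -0.33. Drd1 had -0.22 and Drd2 -0.11, and the highest member was the cannabinoid receptor gene Cnr1 at 0.27. In bulk tissue, fewer cells of a type and less RNA per cell cannot be told apart. The part of cortical or claustral tissue in the ratios of single genes such as Bdnf, Cck and Cbln2 was not tested.

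Interneuron genes included a few that were much lower than the rest. The median of the list was -0.14 over 16 members (-0.04 over light touch), with 6 above 0 and 10 below. The 3 that were 1.5-fold lower, against 0.787% of all genes, were Cck, the vasoactive intestinal peptide gene Vip (-0.76, and -1.18 over light touch) and Crhbp, the binding protein of corticotropin-releasing hormone (-0.65 and -0.64). Genes of striatal interneurons did not share this size: somatostatin (Sst) had -0.11, neuropeptide Y (Npy) 0.08, parvalbumin (Pvalb) 0.12 and the choline transporter gene Slc5a7 0.17. No other member was 1.5-fold apart. Kit had -0.32 and Lhx8 -0.27, and Chodl was highest at 0.21.

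Hypothalamus genes had a median of 0.13 (0.15 over light touch), with 10 of 15 above 0; over the 5 members left after subtracting the other tissues' median it was -0.0919. The 2 that were 1.5-fold higher, against 0.485% of all genes, were Oxt and Avp. The orexin gene Hcrt had 0.16, and Pmch, which encodes melanin-concentrating hormone and was picked out after its value was seen, had -0.50. Genes of thalamus and septum had a median of 0.08 over 11 members, 6 above 0 and 5 below, against -0.13 over light touch; Ramp3 was lowest at -0.44 and Gbx2 highest at 0.37. Since the extraction text names hypothalamus, the part of that tissue in the values of Oxt and Avp was not tested.

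Most glial and vascular genes lay slightly above 0. Oligodendrocyte and myelin genes had a median of 0.22, with 21 of 24 above 0 against 45.1% of all genes, and 0 were 1.5-fold apart. With the probe nearest 0 taken for each gene, the median was 0.10. The iron carrier gene Tf had 0.39, the receptor gene Gpr37 0.35 and myelin basic protein (Mbp) 0.24, while the adhesion gene Mag had -0.03. Precursor genes of this lineage had a median of 0.14, with 8 of 9 above 0; Bcas1 had 0.58 from probes at 0.37, 0.58 and 0.94, and Olig2 had -0.32. Astrocyte genes had a median of 0.19, with 19 of 22 above 0, but of -0.0895 over the 9 members left once the other tissues' median was subtracted. The highest were the angiotensinogen gene Agt at 0.52 and the glutamate transporter gene Slc1a2 at 0.36, and the filament gene Gfap had 0.30.

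Endothelial and pericyte genes had a median of 0.14, with 21 of 22 above 0, and the efflux transporter genes Abcg2 and Abcb1a were highest at 0.54 and 0.34. Microglia and macrophage genes had 0.13, with 16 of 20 above 0 (-0.0775 over 14 members under that subtraction); Lyve1, a hyaluronan receptor of vessel-associated macrophages and lymphatic vessels, was 1.5-fold higher at 0.63 and had 0.62 over light touch. Over light touch the medians were smaller in each of these lists, at 0.11 for oligodendrocytes, 0.07 for their precursors, 0.04 for astrocytes, 0.04 for endothelium and pericytes and 0.01 for microglia. The median of all features was 0.001, so the ratios are relative to the array's centre.

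Genes of the choroid plexus and meninges had a median of 0.08 over 11 members (0.12 over light touch), with 8 above 0 and the growth factor gene Igf2 1.5-fold higher at 0.595. Genes of motile cilia, which ependymal cells carry, had a median of 0.12 over 17 members, with 9 above 0 and 8 below. Mlf1 and Tsnaxip1 (0.60) were 1.5-fold higher. Over the 15 cilium genes valued in both comparisons the median was -0.00, against 0.49 with light touch as comparator: Foxj1, the master regulator of motile cilia, had -0.13 and 0.63 (0.02 and 0.63 at the 1 probe read in both), and Rsph1, a radial spoke gene, -0.19 and 0.54. Of the listed erythroid genes 5 were valued, with a median of 0.09 and 3 above 0. Over the same 5 it was -0.0934 once the other tissues' median was subtracted. The beta-globin gene Hbb was 1.5-fold lower at -0.65 and the haem synthesis gene Alas2 had -0.58. The alpha-globin gene Hba-a3, at -0.88, is missing from the list, whose own alpha-globin symbols were not annotated. Hbb also had -0.64 and -0.30 in salivary glands.

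**Figure D4:**
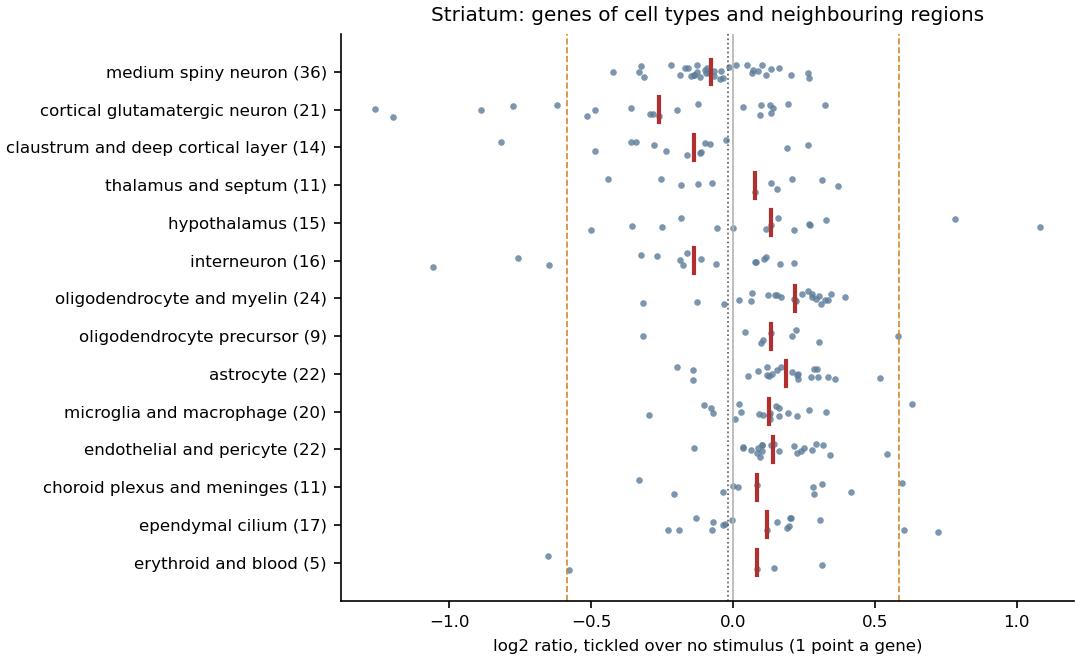
Genes of cell types and of regions that border the striatum, with 1 point a gene and the number of valued genes in brackets. The horizontal axis is the log2 ratio, tickled over no stimulus; red bars are list medians, the dotted line is the median of all genes at -0.02 and dashed lines mark 1.5-fold. Cortical genes reach farthest to the left, and the oligodendrocyte and endothelial lists lie mostly right of 0.

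Synaptic vesicle genes, which encode the release machinery of nerve terminals, were below 0 in 25 of 27, with a median of -0.20, and of -0.16 against light touch; it was -0.33 over the 6 members left once the other tissues' median was subtracted. None was 1.5-fold apart. The SNARE gene Stx1a had -0.51, the active zone gene Pclo -0.46, synaptophysin (Syp) -0.38 and the synapsins Syn1 and Syn2 -0.25 and -0.32. Only Syt2 and Rab3c, named for being the exceptions, were above 0, each at 0.02. The lower median stood beside the lower cortical genes and the higher glial ones, and their part in it was not tested.

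Dopamine genes lay on both sides of 0, with a median of 0.05 over 12 members (-0.0182 over 4 after the other tissues' median was subtracted) and 0 of them 1.5-fold apart. Th, whose product tyrosine hydroxylase limits the rate of dopamine synthesis, had 0.50 and Ddc, the enzyme of the next step, 0.43. Th had 1.40 in salivary glands over no stimulus and 0.08 over light touch. Serotonin receptors had a median of -0.16, with 4 above 0 and 8 below, from Htr1a at -0.52 to Htr5b at 0.55. All 6 valued adrenergic receptors were below 0, with the same median of -0.16; Adra1d, the alpha-1D receptor, was 1.5-fold lower at -0.83, and the next was Adra2c at -0.23. Cholinergic genes had a median of -0.17, with 4 above 0 and 10 below, and of -0.02 with the probe nearest 0 taken for each gene. The nicotinic subunit gene Chrna4 was 1.5-fold lower at -0.76 (-0.77 over light touch), and the muscarinic receptor gene Chrm2 had -0.52, whereas the transporter genes of cholinergic terminals, Slc18a3 and Slc5a7, had 0.12 and 0.17.

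Among receptors for opioids, cannabinoids and neuropeptides the median was -0.12, with 4 of 19 above 0 and 15 below, but 0.21 over the 3 members with 2 or more probes of 1 sign. The galanin receptor gene Galr2 (-0.83), the somatostatin receptor gene Sstr3 (-0.75) and the melanocortin receptor gene Mc4r (-0.59) were 1.5-fold lower. Over light touch Sstr3 had -0.92, while Galr2 had 0.06 and Mc4r -0.13. The opioid receptor genes Oprk1 and Oprd1 had -0.28 and 0.06. Neuropeptide genes had a median of -0.15, with 4 of 18 above 0; Ghrl was 1.5-fold higher, and Cck, Vip and cortistatin (Cort, -0.72) were 1.5-fold lower. The peptides of medium spiny neurons lay near 0, at -0.14 for Penk, -0.08 for Tac1 and -0.01 for Pdyn.

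Glutamate receptor genes had a median of -0.02 over 23 members, 10 above 0 and 13 below, with Grm5 and Grin3a lowest at -0.40 each. Genes of GABA synthesis, transport and reception had -0.16 over 17, with 12 below 0; the receptor subunit genes Gabra3 and Gabra5 had -0.53 and -0.52, and the enzyme genes Gad1 and Gad2 -0.19 and -0.17. No member of either list was 1.5-fold apart. Potassium channel genes had a median of -0.08 over 47, 18 above 0 and 29 below, but of 0.13 over the 4 members with 2 or more probes of 1 sign. Kcnj6 was the 1 member 1.5-fold apart, followed by Kcnc2 at -0.53. Sodium and calcium channel genes had -0.14 over 28, with 21 below 0; Cacng8, an auxiliary subunit of AMPA receptors that belongs to the calcium channel gamma family, was 1.5-fold lower at -0.77 and had -0.20 over light touch.

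Neurotrophic factors and their receptors went both ways. Their median was 0.10 over 18 members, with 10 above 0, but -0.36 over the 3 members with 2 or more probes of 1 sign. Ret was 1.5-fold higher, and Bdnf and Cntfr were 1.5-fold lower. Ligands of Ret lay near 0, with Gdnf at 0.21 and Nrtn at 0.04. Immediate early genes, which neuronal activity induces within minutes to hours, had a median of -0.11 over 23, with 9 above 0 and 14 below. Over the 9 members left once the other tissues' median was subtracted it was 0.0710 (0.16 over the same genes before). Over the 4 members with 2 or more probes of 1 sign it was -0.56. Nr4a2 alone was 1.5-fold apart, Fos had -0.24, Fosl2 -0.45 and Jun 0.21. The labels used here do not give the time between the last stimulation and sampling.

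Interferon-stimulated genes, which cells switch on through the transcription factors STAT and IRF, had a median of 0.15. Of 22 valued, 16 were above 0, which is 72.7% against 45.1% of all genes. Some lists of other kinds had shares as large, with 73.7% for glucocorticoid receptor and target genes and 79.7% for cytosolic ribosomal protein genes. Over the 21 interferon-stimulated genes valued in both comparisons the median was 0.16, against 0.06 with light touch as comparator. Ifit3, which encodes an antiviral RNA-binding protein, was 1.5-fold higher at 0.63 and had 0.55 over light touch. Usp18, which removes the ubiquitin-like protein ISG15, had 0.56, Ifit2 0.34 and Isg15 0.26. Ifit3 had 0.63 and 0.59 in leukocytes and 0.15 and 0.11 in salivary glands, and the part of blood cells in the striatal value was not tested.

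The promoters of these genes are shown because they share a motif that the ratios did not use. The IRF and STAT complexes bind a repeat of GAAA and GAAA with any 2 bases between them, searched here on both strands from 250 bases before to 50 after each start in RefSeq's table of build GRCr8. It was found in 15 of the 23 list promoters in the table (65.2%) and in 11 of the 16 whose gene had a value (68.8%), against 264 of 9053 promoters of valued genes (2.92%) and 1312 of 33469 promoters in all (3.92%). The list was drawn up from genes known to respond to interferon, so the share describes the list. A stretch of 120 bases from 4 of the promoters follows, 5′ to 3′ on the gene's strand with the motif in capitals; a motif on the opposite strand reads as its reverse complement. Those of Ifit3, Irf7 and Gbp2 end just before the start, and that of Bst2, which holds 2 overlapping motifs, ends 17 bases before it.
Ifit3 chr1:241527206-241527325, plus strand: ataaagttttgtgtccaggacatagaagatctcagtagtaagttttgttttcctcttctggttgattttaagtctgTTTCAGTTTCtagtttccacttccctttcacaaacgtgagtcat
Irf7 chr1:205800024-205800143, minus strand: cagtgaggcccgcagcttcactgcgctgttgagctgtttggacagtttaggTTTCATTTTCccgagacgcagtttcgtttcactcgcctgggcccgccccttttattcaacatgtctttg
Gbp2 chr2:234005607-234005726, plus strand: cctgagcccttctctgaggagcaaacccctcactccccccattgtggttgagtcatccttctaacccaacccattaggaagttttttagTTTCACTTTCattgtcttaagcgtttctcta
Bst2 chr16:18254984-18255103, minus strand: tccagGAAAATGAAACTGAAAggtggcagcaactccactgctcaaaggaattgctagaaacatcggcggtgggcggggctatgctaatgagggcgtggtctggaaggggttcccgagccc
The log2 ratios of these genes were 0.63 for Ifit3, 0.39 for the transcription factor gene Irf7, 0.46 for the guanylate-binding protein gene Gbp2 and 0.16 for Bst2, which encodes tetherin. The motif did not go with a high ratio in each case, since Oas1b, Rsad2, Ifi27 and Psmb8 held it and had -0.13, -0.02, -0.01 and -0.03. A match describes the sequence and is not a measured binding site.

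Cell cycle and mitosis genes had a median of 0.09 over 30 members, with 22 above 0. The kinesin gene Kif22 was 1.5-fold higher at 0.59, cyclin A2 (Ccna2) had 0.51, and Mki67, which marks dividing cells, had -0.25. Over the 26 members valued in both comparisons the median was 0.11, against 0.24 with light touch as comparator. Genes of tight junctions other than Tjp1 stayed within 1.5-fold: 9 of 12 were above 0 with a median of 0.11, and the next highest were Jam2 at 0.33 and Tjp3 at 0.25, with occludin (Ocln) at 0.16. Prostaglandin genes had a median of 0.14 over 11, with 7 above 0 (-0.13 over the 3 members with 2 or more probes of 1 sign), and only Hpgd was 1.5-fold apart; Ptgds, the prostaglandin D synthase of brain, had 0.26. Aldo-keto reductase genes had 0.13 over 10 with 6 above 0 (-0.10 over 4 members under the same subtraction), and Akr1c13 and Akr1c19 were the 2 that were 1.5-fold higher, while Akr1a1 and Akr1b1 had -0.19 and -0.23. Wnt and Wnt-modulating genes had -0.15 over 15 with 10 below 0; Rspo2 and Wnt4 (-0.59) were 1.5-fold lower, and the related gene Rspo1 had -0.15.

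Stress genes lay on the low side or near 0. Heat shock and unfolded protein genes had a median of -0.13, with 20 of 26 below 0, and none was 1.5-fold apart; the chaperone genes Hspa5 and Hspa1a had -0.51 and -0.41. Hspa5 had -0.51 and -0.37 in salivary glands. Glucocorticoid receptor and target genes had a median of 0.02 over 19, with 14 above 0, and of -0.10 over the 11 members left once the other tissues' median was subtracted (0.10 over the same genes before). Fkbp5 had -0.09 and Nr3c1, the receptor gene, 0.18. Clock genes had -0.08 over 16 with 10 below 0, from Per2 at -0.32, and antigen presentation genes -0.01 over 10 with 5 on each side of 0.

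Housekeeping genes mostly lay near 0. Cytosolic ribosomal protein genes had a median of 0.07, with 55 of 69 above 0 and 0 of them 1.5-fold apart; Rps26 was highest at 0.48. Oxidative phosphorylation genes had 0.04 over 77, with 54 above 0. Ndufc1, a subunit gene of complex I, was 1.5-fold higher at 0.67, had 0.15 over light touch and 0.50 and 0.51 in salivary glands. Reference genes had -0.09 over 12, with Hprt1 at -0.18, Actb at -0.15 and Gapdh at -0.10. The probe nearest 0 had 0.0223 for Actb and 0.0151 for Hprt1, and Gapdh had 0.0740 after the subtraction. Olfactory receptor genes, of which 178 of 1095 listed had a value, had 0.08 (-0.0210 over 90 after the other tissues' median was subtracted), with 124 above 0, 3 that were 1.5-fold higher and 1 lower. Members of a family of this size are alike in sequence, and their probes may read more than 1 of them. Of the 668 distinct valued genes on the lists drawn up by hand, 14 were 1.5-fold higher and 23 lower. Of all genes, 0.485% were higher and 0.787% lower by that fold. The lists were chosen with earlier results of these data known, so a difference from these shares is no result about the listed genes. Of the 86 genes 1.5-fold lower, 63 are on none of these lists.

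**Figure D5:**
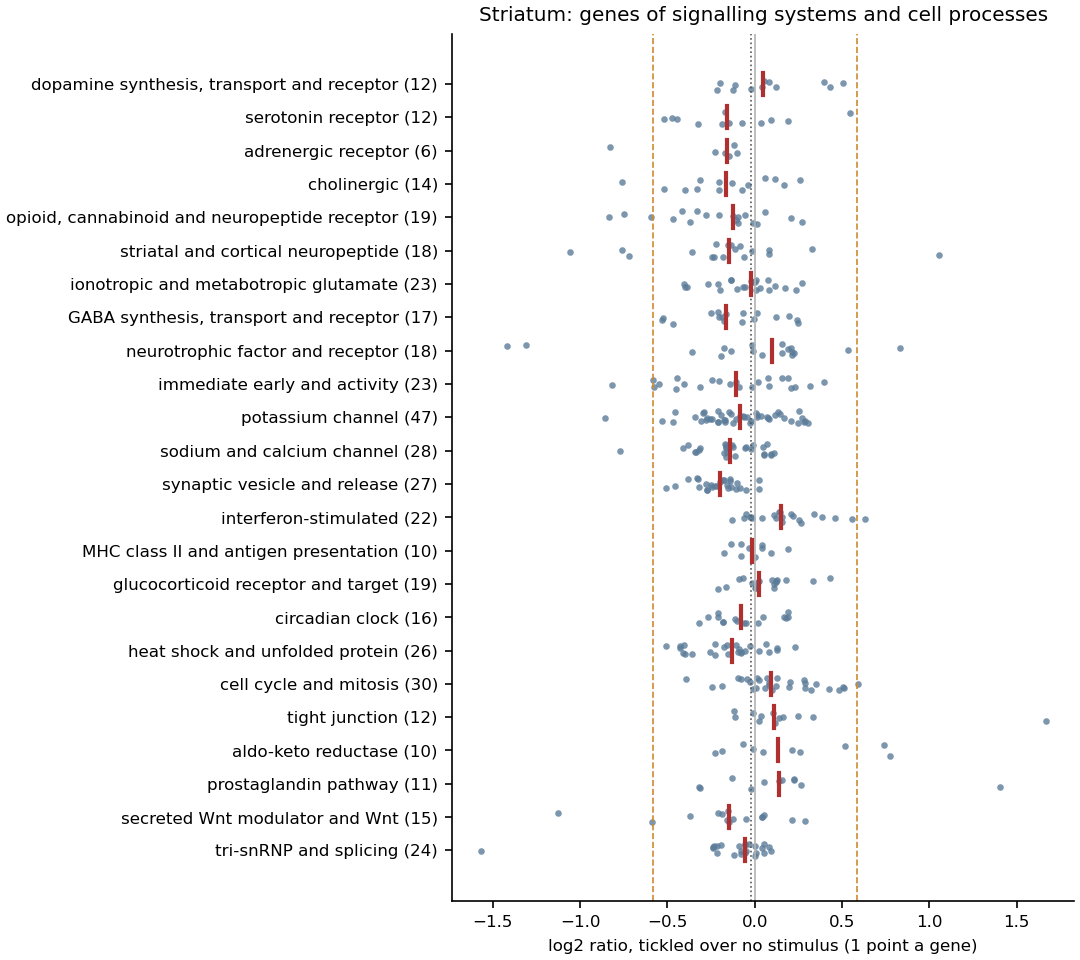
Genes of signalling systems and cell processes, with 1 point a gene and the number of valued genes in brackets. The horizontal axis is the log2 ratio, tickled over no stimulus; red bars are list medians, the dotted line is the median of all genes at -0.02 and dashed lines mark 1.5-fold. Synaptic vesicle genes lie left of 0 in 25 of 27, interferon-stimulated genes right of 0 in 16 of 22, and Tjp1, Hpgd and Prpf31 lie apart from their lists. Of all genes valued on the array, 54.9% lie left of 0 and 45.1% right of it.

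The line at 1.5-fold divides genes that hardly differ. Just inside on the higher side were Tfap2e, Heph and Kif22 at 0.59 each, and just outside were Gja5, Bcas1 and Insc at 0.58 each. On the lower side Wnt4, Lipm and Mc4r lay inside at -0.59 each, and Homer1, Ebf2 and St6galnac5 outside at -0.58 each. These gaps are far smaller than the median probe standard deviation of 0.12.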

How the data were processed

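Members and gene lists were chosen with earlier results of these data known. The authors deposited 1 log ratio per feature and array in a series table, and these deposited values are read here as log2. Per the labels, Cy5 held tickled and Cy3 comparator RNA; per the submitters' processing notes, Agilent Feature Extraction 9.1 was used. Which normalization was used, why values are blank and in which log base they stand is not stated in the sources used here. Base 10 is not possible, since the largest absolute value in the series, 7.75, would then exceed any array's range. Intensities were not used here.

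Of 44290 features, 23535 carried 1 gene symbol in the platform annotation, 48 several and 20707 none. RefSeq's table (GRCr8) matched the Entrez identifiers of 23488 and updated 1 symbol. Values were present for 27590 features, 16664 of them with 1 symbol. Genes took the median of their valued probes; no filter, centring or test was applied, since each comparison is 1 array, whose number limits the precision. Genes were counted at 2-fold and at 1.5-fold, and 42 gene lists by their median and by members on each side of 0. Named genes were the 20 largest each way with a symbol other than a locus number or olfactory receptor name and probes of 1 sign; list members 1.5-fold apart; the first 3 and the 2 largest members of each list; and the 3 genes on each side of 1.5-fold. Others were named after their values were seen: Epop, C1ql3, Lrfn2, Wipi2, Lactb, Sh3bgrl1, Or8b101b and some list members.

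Alternatives were the mean of a gene's probes, its probe of smallest absolute ratio, genes with 2 or more probes of 1 sign and centring. Further ones were genes valued on both striatal arrays, subtraction of the other tissues' median, natural logs and probes with several symbols. Promoters are from RefSeq. Python 3.11.15 with pandas 2.3.3 and numpy 2.4.6 was used. The counting code was run at 2-fold on simulated data with large planted shifts, which checks the code and cannot judge the counts reported here.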

Additional observations from a re-analysis of the deposited data

Results flagged for a closer look

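In 3 genes the 1 striatal sample and the 1 sample of another tissue lay on opposite sides of 0 for tickled over no stimulus, each by more than 1.5-fold. With 1 array of each, none of these differences was tested. Grifin had a log2 ratio of 1.05 in striatum and -1.22 in salivary glands, and its striatal value over light touch, -0.87, was also below 0. Hba-a3 had -0.88 in striatum and 1.34 in leukocytes, where it had 2.63 over light touch. Nr4a2 had -0.82 in striatum and 0.66 in salivary glands, where it had -0.25 over light touch. Each rests on 1 probe.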

How the results depend on the processing

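Taking the mean of a gene's probes or the probe nearest 0 left the 4 counts within 1.5 times. So did centring on the median of all features and keeping only genes valued on both striatal arrays. Keeping only genes with 2 or more probes of 1 sign left 1 higher and 2 lower genes at 2-fold (of 5 and 10) and 4 and 7 at 1.5-fold (of 53 and 86), over 1945 genes. Subtracting the median of the other tissues' arrays left 2 and 3 at 2-fold and 19 and 43 at 1.5-fold, over 6222 genes; all 5 higher and 8 of the 10 lower 2-fold genes had no value there. Read as natural logs, the values gave 19 and 56 at 2-fold and 200 and 294 at 1.5-fold. Of the named genes, 24 changed sign under the mean (2), the probe nearest 0 (13) or the subtraction (12). None of these was 1.5-fold apart, and the farthest from 0 was Fcer1g (0.33, and -0.15 under the subtraction). List medians changed sign for 14 lists, 9 of them under the subtraction. Those 9 medians were then -0.0895 for astrocytes (9 genes, 0.09 over the same genes before it), -0.0919 for hypothalamus (5) and -0.0775 for microglia (14). They were 0.0710 for immediate early genes (9), -0.10 for aldo-keto reductases (4) and -0.0934 for erythroid genes (5). They were -0.0182 for dopamine (4), -0.10 for glucocorticoid (11) and -0.0210 for olfactory receptor genes (90). Without a change of sign, the medians moved to -0.27 for medium spiny neurons (10 genes) and -0.33 for synaptic vesicles (6). Before the subtraction the same genes had 0.16 (immediate early) and -0.04 (aldo-keto reductases), so these signs turned with the loss of genes; the cause of the other moves was not tested. With the probe nearest 0, and without a change of sign, the oligodendrocyte median was 0.10 and the cholinergic median -0.02. Over genes valued on both striatal arrays the cilium median was -0.0018. With 2 or more agreeing probes the opioid, cannabinoid and neuropeptide receptors had 0.21, the prostaglandin genes -0.13 and the neurotrophic genes -0.36, over 3 genes each. The potassium channel genes had 0.13 over 4. The immediate early genes, without a change of sign, had -0.56 over 4. No paired analysis was possible because the comparison holds 1 array, and for the same reason no replicate could be left out. Blank values and the lack of intensities limit what can be said of weak genes.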

Other observations

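Features without a gene symbol also carried large ratios. Of 10897 such features with a value, 4 were 2-fold higher and 11 were 2-fold lower in tickled striatum. Feature 39322 had the lowest value, a log2 ratio of -3.16 (and of -3.25 against light touch), and no value on the arrays of other tissues. Feature 11596 had -1.37 and -1.40, and feature 33067 had 1.42 and 1.30, likewise in striatum only. Feature 24579, at 1.46 over no stimulus, had 0.01 over light touch. The genes these features read were not identified here.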
